A study of Saccharomyces cerevisiae with 6 samples.

Results

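Aminoacyl-tRNA synthetases are the enzymes that attach each amino acid to its tRNA. The 36 genes described here were taken by systematic name from the count tables of Saccharomyces cerevisiae BY4741, out of 6572 listed features. They comprise 21 genes of cytosolic synthetases, which cover 20 amino acids because the phenylalanine enzyme has a gene for each of its subunits, then GRS2, an additional glycine synthetase gene, and 14 genes of mitochondrial synthetases. All 36 were found, 35 had reads in each library, and all 36 had a mean of at least 10 CPM (a gene's read count scaled to the total count of its library).

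The series holds RNA-seq libraries of pelleted cells from S. cerevisiae BY4741 and from the probiotic yeast S. boulardii Biocodex, with 3 of each strain, after 6 h of growth in a medium that the labels call ILM. BY4741 is a haploid laboratory strain of mating type a and S288C background, known to lack LEU2, URA3, MET17 and a part of HIS3. The first 3 of these genes had 0 reads in each BY4741 library, while HIS3 had 925, 196 and 285. Biocodex identifiers carry no gene names and 0 of them occur in the BY4741 tables, so the synthetases were described within BY4741, with 18707708 reads counted in replicate 1, 5181546 in replicate 2 and 4581414 in replicate 3. The labels do not say whether replicates were separate cultures, so the spread between them may be technical. Each value is an average over a bulk culture, in which fewer cells that express a gene and less RNA per cell cannot be told apart.

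In yeast as in other eukaryotes, protein synthesis runs in the cytosol and, for the few proteins encoded by mitochondrial DNA, inside mitochondria. The mitochondrial enzymes are encoded in the nucleus and imported, usually by an N-terminal presequence rich in basic residues. Some nuclear genes serve both compartments by making a longer, imported form from an earlier start codon. Synthetases fall into class I, built on a Rossmann fold with the HIGH and KMSKS signatures, and class II, with a different catalytic fold. When tRNAs lack their amino acids, the kinase Gcn2 raises translation of the transcription factor Gcn4, which activates amino acid synthesis genes and is known to activate several synthetase genes.

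Genes that serve both compartments through different start codons are shown first, because the counts cannot separate their forms. CRS1, HTS1 and VAS1, for cysteine, histidine and valine, each have a later in-frame ATG, at codon 14, 21 and 47 of the annotated coding sequence. Their reference sequences from the annotated ATG through that later ATG are given here from the RefSeq assembly R64 of S288C, with both ATG codons in capitals. The CRS1 stretch is chrXIV:182875-182916 on the plus strand, HTS1 is chrXVI:638957-639019 on the minus strand, and VAS1 is chrVII:672186-672326 on the plus strand.
CRS1: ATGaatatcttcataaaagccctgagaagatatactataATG
HTS1: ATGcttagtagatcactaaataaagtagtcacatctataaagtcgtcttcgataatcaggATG
VAS1: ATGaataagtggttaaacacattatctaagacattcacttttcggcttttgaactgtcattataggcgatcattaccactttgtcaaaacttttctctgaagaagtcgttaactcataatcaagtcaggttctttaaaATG

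ALA1 and GRS1, for alanine and glycine, are known instead to start their mitochondrial forms at codons other than ATG, upstream of the annotated start. In R64 the reading frame was open from 2 ACG codons that begin 25 codons before the annotated ATG of ALA1, and from a TTG codon 23 codons before that of GRS1. These codons are in capitals in the 30-base stretches chrXV:949161-949190 (ALA1) and chrII:483413-483442 (GRS1), both on the minus strand.
ALA1: gacaagACGACGtcaactaccggattaagg
GRS1: gaaaaaTTGtcgttcttcaatatcagtaga

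Cytosolic synthetase genes were mostly abundant and mitochondrial ones scarce. Scaled to coding length, the 21 cytosolic genes had a median of 96.5 CPM per kb and the 14 mitochondrial genes one of 15.9, while the median over all 5898 genes with a coding length was 45.9 CPM per kb. Of the cytosolic genes 18 lay above that median gene, and of the mitochondrial genes 13 lay below it, as do 50% of all genes by construction. Above the upper quartile of all genes, 122 CPM per kb, lay 6 cytosolic and 0 mitochondrial members, against 25% of all genes. Together the cytosolic genes took 0.501% ± 0.0566 of the counted reads and the mitochondrial genes 0.0450% ± 0.00251 (SD, n = 3 each).

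Within each library the median log2 level per kb of the cytosolic genes exceeded that of the mitochondrial genes, by 2.57, 2.41 and 2.48 in replicates 1, 2 and 3. The mean difference was 2.49 ± 0.08 (SD, n = 3), or 5.61-fold, far larger than the spread between libraries. An exact two-sided sign-flip permutation test over 3 libraries gave p = 0.25, the smallest value it can give. The ranges of single genes overlapped: 6 mitochondrial genes lay above the lowest cytosolic gene, and 3 cytosolic genes lay below the highest mitochondrial one.

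**Figure D1:**
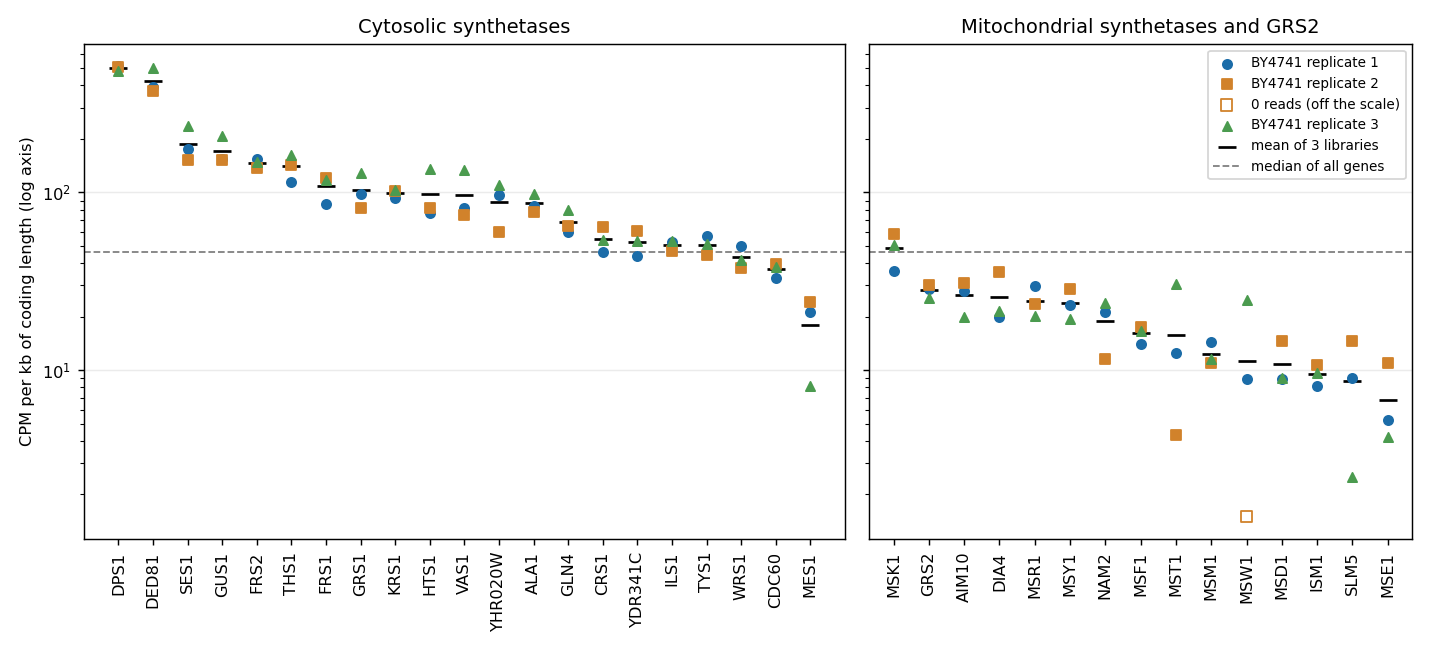
Levels of the 21 cytosolic synthetase genes and of the 14 mitochondrial genes with GRS2, in CPM per kb of coding length on a log axis; points are the 3 BY4741 libraries, bars their mean, the dashed line the median of all genes at 45.9. DPS1 and DED81 stand apart at the top, MES1 at the bottom of the cytosolic genes, and MSW1, at 0 reads in replicate 2, is drawn as an open square below the scale.

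The aspartate and asparagine enzymes had the highest transcript levels of the family. DPS1 (YLL018C), the aspartyl-tRNA synthetase, had 511, 507 and 484 CPM per kb in replicates 1, 2 and 3. DED81 (YHR019C), the asparaginyl-tRNA synthetase, had 390.1, 371 and 504 CPM per kb. The ranges of this pair overlapped but did not meet those of any other member: the highest value of SES1 (YDR023W), the seryl-tRNA synthetase and next by mean, was 235 CPM per kb. SES1 had 175, 153 and 235 CPM per kb, and GUS1 (YGL245W), the glutamyl-tRNA synthetase, had 154, 153 and 207. These ranges overlapped, so the order of SES1 and GUS1 is not settled by these libraries.

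Class II genes were the more abundant of the cytosolic set. The 11 class II genes had a median of 109 CPM per kb and a lowest member at 86.6, so each exceeded the median gene, while the 10 class I genes had a median of 51.6 and 7 of them exceeded it. Class II genes are shorter here, with a median of 1776 bp against 2280 bp in class I. Without length scaling the medians were 221 CPM for class II and 124 CPM for class I, which is the same order. GUS1, at 172 ± 30.7 CPM per kb (SD, n = 3), was the one class I gene above the upper quartile.

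Among the other class II genes, THS1 (YIL078W), for threonine, had 115, 142 and 162 CPM per kb. KRS1 (YDR037W), for lysine, had 93.4, 102 and 103 CPM per kb. YHR020W, the prolyl-tRNA synthetase, which has no other name in the reference table, had 96.2, 60 and 109.6 CPM per kb, lowest in replicate 2. The dual-located class II genes lay close to these: GRS1 (YBR121C) averaged 103 ± 23.6, HTS1 (YPR033C) 97.9 ± 32.0 and ALA1 (YOR335C) 86.6 ± 10.3 CPM per kb (SD, n = 3 each). These 3 means differ by less than the spread between the libraries of HTS1.

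The phenylalanine enzyme is a tetramer of equal numbers of both subunits, encoded by FRS1 (YLR060W) for the beta and FRS2 (YFL022C) for the alpha subunit. FRS1 had 86.5, 121 and 118 CPM per kb, and FRS2 had 154, 137 and 148. FRS1 was lower than FRS2 in 3 of 3 libraries, with ratios of 0.563, 0.883 and 0.799. The mean log2 ratio was -0.44 ± 0.34 (SD, n = 3; exact permutation p = 0.25), so the subunit transcripts were within 2-fold of each other in each library.

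Most class I genes stood near the median gene. VAS1 (YGR094W), for valine, averaged 96.5 ± 32.3 CPM per kb and GLN4 (YOR168W), for glutamine, 68.2 ± 10.6 (SD, n = 3 each). CRS1 (YNL247W), for cysteine, averaged 54.7 ± 9.0, YDR341C, for arginine, 52.5 ± 8.55, ILS1 (YBL076C), for isoleucine, 50.8 ± 3.29, and TYS1 (YGR185C), for tyrosine, 50.8 ± 5.96 CPM per kb (SD, n = 3 each). The ranges of these last 4 genes overlapped, so their order is not settled.

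By mean, the genes for tryptophan, leucine and methionine came last among the cytosolic ones. WRS1 (YOL097C) had 49.9, 37.4 and 41.8 CPM per kb. CDC60 (YPL160W), the leucyl-tRNA synthetase, named for a cell division cycle mutant, had 33.1, 39.7 and 38.1 CPM per kb. MES1 (YGR264C), the methionyl-tRNA synthetase, had 21.3, 24.2 and 8.13 CPM per kb, from 900, 283 and 84 reads. The range of WRS1 overlapped those of YDR341C, CRS1, ILS1 and TYS1, so its place below them is not settled. Each library of MES1 lay below each library of WRS1 and CDC60, and replicate 3 of MES1 was low against its own other libraries.

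The count of MES1 is uncertain. The BY4741 tables also list features that the R64 gene table does not hold, and YGR265W, next to MES1 in the systematic numbering, had 0 reads in all libraries. Such a neighbour was listed beside 9 cytosolic and 2 mitochondrial members, with 0 reads for ALA1, GRS1, ILS1, MES1, SES1, MSW1 and, for 2 of its 3 such neighbours, AIM10. Reads that fall on more than 1 listed feature can go uncounted in the kind of counting the submitters' notes name, and whether these neighbours overlap the members was not tested. In R64 itself 0 members overlap another annotated gene, with a smallest gap of 99 bp, and 0 share a 50-base stretch of coding sequence with another gene.

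GRS2 (YPR081C) is a duplicate of GRS1, known as dispensable under standard growth and as induced by some stresses. It had 28.5, 30.1 and 25.6 CPM per kb, while GRS1 had 98.1, 81.6 and 128. The ranges did not overlap, and GRS1 was 3.44-fold, 2.70-fold and 4.99-fold higher in replicates 1, 2 and 3, a mean log2 ratio of 1.85 ± 0.45 (SD, n = 3; exact permutation p = 0.25, adjusted p 0.267 over 16 ratios). The proteins were identical at 60.6% of 611 aligned residues, and the coding sequences shared 0 stretches of 50 bases. GRS2 varied little between libraries, with a coefficient of variation of 8.14%.

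The mitochondrial genes ranged from 6.78 to 48.5 CPM per kb. MSK1 (YNL073W), the lysine enzyme, which is also known to be needed for import of a cytosolic lysine tRNA into mitochondria, was highest, with 36.1, 58.4 and 50.9 CPM per kb. AIM10 (YER087W), which resembles prolyl-tRNA synthetases, followed with 28, 31.1 and 19.8 CPM per kb. DIA4 (YHR011W), for serine and named for an invasive growth phenotype, had 19.9, 35.5 and 21.5. Each library of MSK1 exceeded every library of AIM10 and DIA4, narrowly so in replicate 1, while the ranges of AIM10 and DIA4 overlapped.

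MSR1 (YHR091C), for arginine, averaged 24.5 ± 4.93 CPM per kb, MSY1 (YPL097W), for tyrosine, 23.8 ± 4.65, and MSF1 (YPR047W), for phenylalanine, 16.1 ± 1.87 (SD, n = 3 each). NAM2 (YLR382C), the leucine enzyme, which is also known for a role in splicing mitochondrial introns, had 21.1, 11.6 and 24.0 CPM per kb, lowest in replicate 2. MSM1 (YGR171C), for methionine, averaged 12.3 ± 1.84, MSD1 (YPL104W), for aspartate, 10.8 ± 3.20 and ISM1 (YPL040C), for isoleucine, 9.49 ± 1.27 CPM per kb (SD, n = 3 each). The range of MSD1 overlapped those of MSM1 and ISM1, whereas the lowest library of MSM1, at 10.9 CPM per kb, lay just above the highest of ISM1, at 10.7.

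Several of the scarce mitochondrial genes differed strongly between replicate libraries. MST1 (YKL194C), for threonine, had 324, 31 and 195 reads, or 12.5, 4.31 and 30.6 CPM per kb. SLM5 (YCR024C), for asparagine, had 251, 111 and 17 reads, or 9.07, 14.5 and 2.51 CPM per kb. MSE1 (YOL033W), for glutamate, had 158, 91 and 31 reads, or 5.24, 10.9 and 4.20 CPM per kb. The library that stood apart differed from gene to gene. Replicate 2 was lowest for MST1 and replicate 3 was lowest for SLM5. For MSE1 replicate 2 was high, while replicates 1 and 3 lay close together.

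MSW1 (YDR268W), for tryptophan, had 189, 0 and 130 reads. Its level was 8.86 CPM per kb in replicate 1 and 24.9 in replicate 3, while the count of 0 in replicate 2 allows up to 0.579 CPM before length scaling, for counting error only. No reads in 1 library with at least 10 CPM in the other 2 was seen for 1 member, MSW1, and for 40 of 5898 genes, or 0.678%.

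For 13 of the 14 amino acids with an enzyme of each compartment, the cytosolic gene was higher per kb in each of the 3 libraries. The median of the 14 mean log2 ratios was 2.66, a ratio of 6.30. The exact permutation p was 0.25 for each of these 13 ratios and 0.267 after Benjamini-Hochberg adjustment over 16 ratios, so no pair can pass a threshold of 0.05 with 3 libraries. The spread between libraries was smaller than the mean log2 ratio for all of the 13 except tryptophan, where MSW1 had no reads in replicate 2.

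By mean log2 ratio the gap was widest for asparagine, aspartate and glutamate. DED81 exceeded SLM5 by 42.9-fold, 25.5-fold and 195-fold in replicates 1, 2 and 3 (log2 5.90 ± 1.53, SD, n = 3). DPS1 exceeded MSD1 by 57.0-fold, 34.8-fold and 53.2-fold (log2 5.56 ± 0.39, SD, n = 3). The aspartate ratio was the larger in replicates 1 and 2, and the 195-fold value rests on 17 reads of SLM5. The order of asparagine and aspartate is therefore not settled. GUS1 exceeded MSE1 by 29.3-fold, 14-fold and 48.5-fold (log2 4.76 ± 0.90, SD, n = 3). SES1, more abundant by mean than GUS1, exceeded DIA4 by a smaller log2 ratio of 2.89 ± 0.70 (SD, n = 3).

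The gap was narrow for lysine, tyrosine, arginine and leucine. KRS1 exceeded MSK1 by 2.59-fold, 1.74-fold and 2.03-fold (log2 1.06 ± 0.29, SD, n = 3). TYS1 exceeded MSY1 by a mean log2 of 1.11 ± 0.41, YDR341C exceeded MSR1 by 1.10 ± 0.48 and CDC60 exceeded NAM2 by 1.03 ± 0.64 (SD, n = 3 each). YDR341C and MSR1 are recorded in the reference annotation as duplicates from the whole genome duplication. They were identical at 61.1% of aligned residues, the highest of the 13 pairs with 1 gene on each side, of which YHR020W and AIM10 were the lowest at 22.8%.

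Methionine was the exception. MES1 over MSM1 was 1.48, 2.20 and 0.700 in replicates 1, 2 and 3, with a mean log2 ratio of 0.40 ± 0.84 (SD, n = 3; exact permutation p = 0.5), so the difference was smaller than the spread between libraries. Without replicate 2 the mean log2 ratio was 0.02 and without replicate 3 it was 0.85. For tryptophan, WRS1 over MSW1 was 5.62 in replicate 1 and 1.68 in replicate 3, and in replicate 2 WRS1, with 252 reads, was at least 73.7-fold higher per kb, against a floor of 3 reads per library for MSW1.

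**Figure D2:**
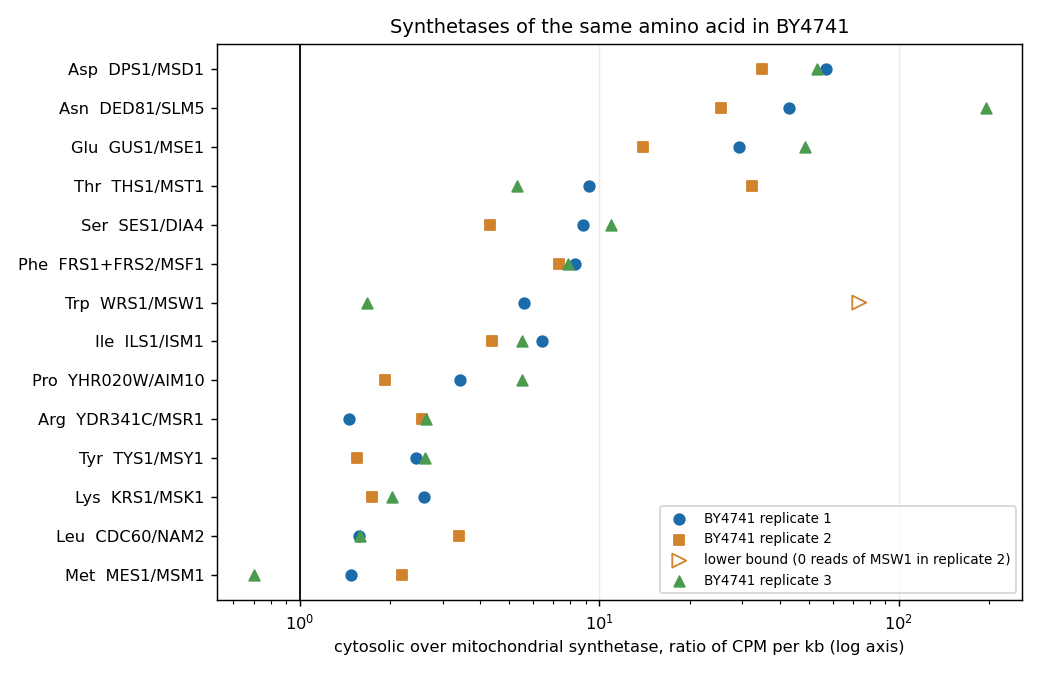
Ratio of the cytosolic over the mitochondrial synthetase of the same amino acid, per kb of coding length on a log axis, in each of the 3 BY4741 libraries, with pairs ordered by their middle library. All points lie right of 1 except MES1/MSM1 in replicate 3, at 0.700; the open triangle is the lower bound of 73.7 for WRS1/MSW1.

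The N-terminal ends of the encoded proteins were mixed in charge in the cytosolic set and basic in the mitochondrial set. Over the first 30 residues translated from R64, the net charge of the cytosolic enzymes ranged from -5 to 6 with a median of 0, and 10 of 21 were positive. The mitochondrial enzymes ranged from 2 to 8 with a median of 4.5, and 14 of 14 were positive. Only 3 cytosolic proteins reached a net charge of 4, namely CRS1 at 6, VAS1 at 5 and HTS1 at 4, and these are the dual-located enzymes whose stretches between ATG codons are printed above. A later in-frame ATG is not particular to them, since 13 of 21 cytosolic genes have one within the first 80 codons. They were also the 3 cytosolic proteins with no acidic residue in that stretch. ALA1 and GRS1, whose upstream starts lie outside the annotated coding sequence, had charges of 3 and 2. The 5 genes listed here as dual-located, each by its start codons, had a median of 96.5 CPM per kb. The other 16 cytosolic genes had one of 94.1, and whether any of these also serves mitochondria was not tested.

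Codon use separated both sets with no overlap. The codon adaptation index runs from 0 to 1 and is higher for genes that use the codons favoured in a standard set, here the 100 genes with the highest CPM per kb outside the family. The cytosolic genes ranged from 0.482 to 0.641 with a median of 0.548, and the mitochondrial genes from 0.293 to 0.382 with a median of 0.333, against a median of 0.350 over 5364 other genes. Those other genes have at least 300 bp and some reads, and leave out the 100 standard genes. GRS2, at 0.339, lay among the mitochondrial genes, and its duplicate GRS1 was at 0.609. Within the cytosolic set the index went with level (Pearson r 0.59, Spearman rho 0.66, n = 21 genes), with GUS1 highest in index and MES1 at 0.507. Within the mitochondrial set the relation had the opposite sign (r -0.52, rho -0.46, n = 14 genes), and over the other genes r was 0.38. The mitochondrial set spans a narrow range of the index, and MST1, highest in it, varied from 4.31 to 30.6 CPM per kb between libraries. Levels here are means over 3 libraries, and the sign within single libraries is not given. These correlations are across genes, which share libraries and are not independent replicates, and are given as a description.

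**Figure D3:**
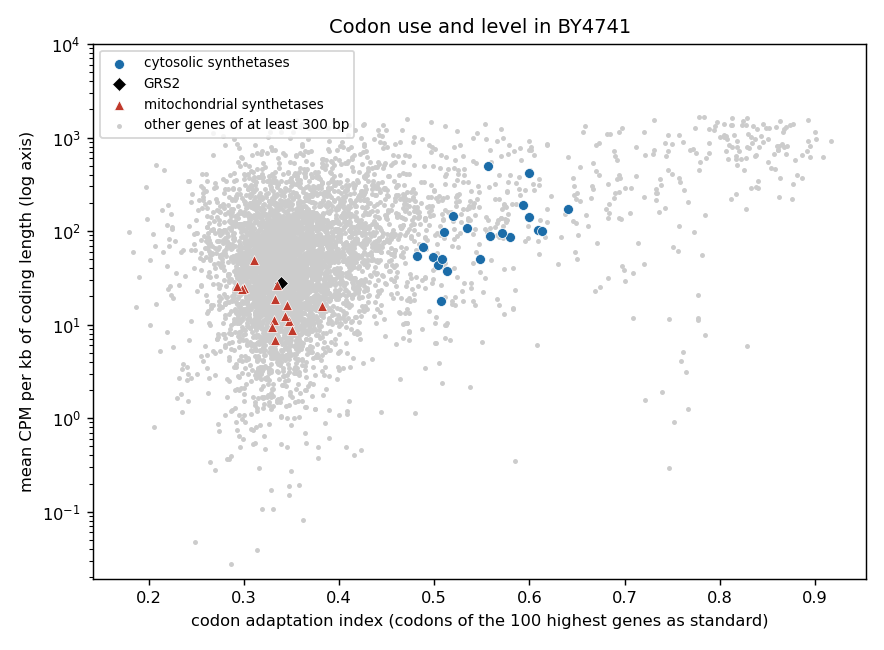
Codon adaptation index (horizontal) against mean CPM per kb over 3 BY4741 libraries (vertical, log axis) for cytosolic synthetases, GRS2, mitochondrial synthetases and other genes of at least 300 bp without the 100 standard genes; genes with no reads are not drawn. The cytosolic genes, from 0.482, lie right of every mitochondrial gene, up to 0.382, while in level MES1 lies among the mitochondrial genes and CDC60 and WRS1 lie below 1 of them, MSK1.

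Synthetase levels were compared with how much of each amino acid the transcripts encode, summed over all genes and weighted by their CPM per kb. Across the 20 amino acids the log2 level of the cytosolic synthetase and the log2 use had a Pearson r of 0.44 and a Spearman rho of 0.38 (n = 20 amino acids, a description, since all points share the same libraries and length scaling). Within single libraries r was 0.42, 0.41 and 0.47. Serine ranked 1 in use, at 8.18% of encoded residues, and 3 in synthetase level. Tryptophan ranked 20 in use, at 1.0%, and 18 in level.

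Several amino acids ranked differently in use and in synthetase level. Leucine ranked 2 in use, at 8.11% of residues, and its gene CDC60 ranked 19 of 20 in level. Aspartate and asparagine ranked 10 and 11 in use, at 5.67% and 5.24%, and their genes ranked 1 and 2. Alanine ranked 3 in use, at 7.72%, and its gene ALA1 ranked 12. Without aspartate and asparagine, chosen after their values were seen, r was 0.50. Methionine ranked 18 in use and 20 in level, and isoleucine ranked 9 in use and 16 in level. CDC60 and ILS1 are among the longest members, at 3273 and 3219 bp, and without length scaling r was 0.59.

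**Figure D4:**
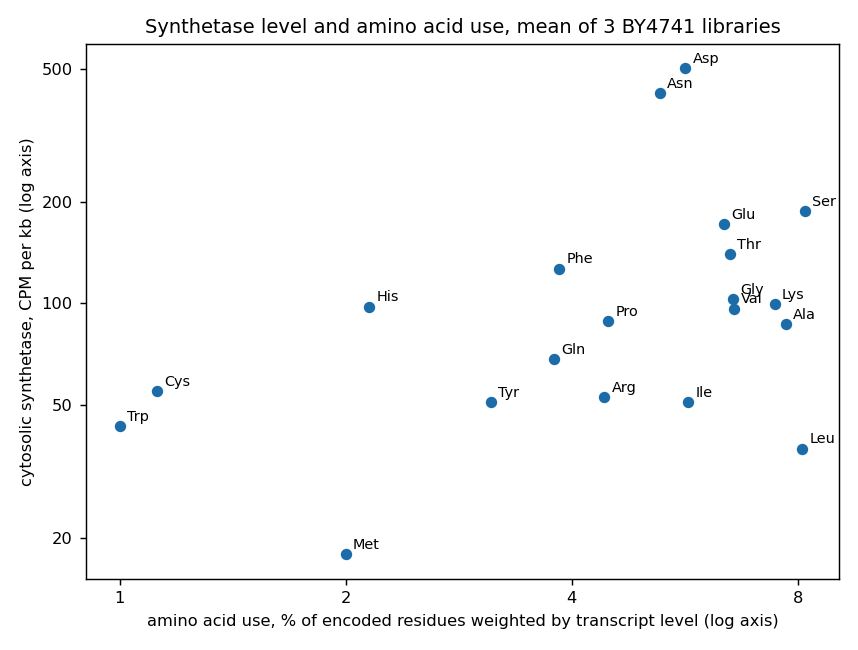
Use of each amino acid in encoded residues (horizontal, percent, weighted by transcript level, log axis) against the level of its cytosolic synthetase (vertical, mean CPM per kb over 3 BY4741 libraries, log axis), with the mean of FRS1 and FRS2 for phenylalanine. Asp and Asn lie above the other points at 501 and 422 CPM per kb, and Leu and Met lie low at 37.0 and 17.9.

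The core of the Gcn4 binding site was found around the annotated start of several cytosolic genes. The letters TGACTC, on either strand, occurred in the window from 250 bases before to 50 bases after the annotated start in 9 of 21 cytosolic genes (42.9%), in 0 of 14 mitochondrial genes and not in GRS2, against 7.98% of 6001 such windows in R64. Cytosolic genes with the letters had a median of 86.6 CPM per kb and those without them one of 106, so levels in these libraries were not higher with them. CCAAT, the core of the Hap2/3/4/5 site, occurred in 42.9% of cytosolic, 28.6% of mitochondrial and 43.3% of all windows. Medians with and without CCAAT were 146 and 69.6 CPM per kb in cytosolic genes and 19.9 and 13.5 in mitochondrial genes. Over all windows they were 46.1 and 45.6, and whether CCAAT bears on level was not tested. The TGACTC match extended to the longer form TGACTCA only in YDR341C, GLN4 and YHR020W. The share of all windows with that longer form was not computed. A match in these letters is a description and not a bound site.

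The 9 stretches of 30 bases that hold TGACTC, or GAGTCA where it reads on the other strand, are given in the direction of the gene with the match in capitals. They lie at chrXV:949139-949168 on the minus strand (ALA1), chrIV:1153809-1153838 on the minus strand (YDR341C), chrXIV:182777-182806 on the plus strand (CRS1), chrXV:649310-649339 on the plus strand (GLN4) and chrII:84346-84375 on the minus strand (ILS1). The others lie at chrIV:525294-525323 (KRS1), chrVIII:143802-143831 (YHR020W), chrIX:212283-212312 (THS1) and chrVII:672076-672105 (VAS1), all on the plus strand of R64. The match begins 47 bases before the start of ALA1, between its ACG codons and its ATG, and 200 bases before that of YDR341C, 86 of CRS1, 102 of ILS1, 134 of KRS1, 182 of YHR020W, 204 of THS1 and 98 of VAS1. In GLN4 it begins at base 20 of the coding sequence.
ALA1: gattaaggaactTGACTCtttctttcaaga
YDR341C: aaagtgtctaatGAGTCAgttatttctttc
CRS1: tttcatcgcgaaGAGTCAaaagacattatc
GLN4: ctgtagaagaatTGACTCagctgttttcac
ILS1: tcgaaacaatgaTGACTCttaagcatgaaa
KRS1: tgaatgatgaaaTGACTCttaatgaacttc
YHR020W: taagcgatgcttGAGTCActgaatgtcttg
THS1: ttactgtttaaaTGACTCttaccttgtgat
VAS1: atttttttagaaGAGTCAcccatacagcct

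Genes that work beside the synthetases were taken from a list of 16. Their median was 44.4 CPM per kb, 8 lay above the median gene and 8 below. GCN4 (YEL009C) itself was the most abundant, with 1184, 1067 and 1328 CPM per kb, well above each synthetase gene. GCN2 (YDR283C), the kinase that senses uncharged tRNA, had 9.89, 21 and 29.8, its cofactor genes GCN1 and GCN20 averaged 20.2 ± 2.71 and 59.0 ± 13.1, and YIH1, a negative regulator of that kinase, averaged 221 ± 10.8 CPM per kb (SD, n = 3 each). GCN4 is controlled mainly in translation, which read counts do not show.

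ARC1 (YGL105W) encodes the cofactor that binds the methionine and glutamate enzymes and helps them to hold tRNA. It had 386, 401 and 348 CPM per kb, above each library of its partner genes MES1 and GUS1. In mitochondria, glutamine tRNA is first loaded with glutamate and then amidated by an enzyme of 3 subunits. Their genes differed widely, with GTF1 at 214 ± 37.1, PET112 at 27.0 ± 9.82 and HER2 at 9.64 ± 3.71 CPM per kb (SD, n = 3 each).

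TUF1, the mitochondrial elongation factor that carries charged tRNA to the ribosome, averaged 153 ± 23.8 CPM per kb (SD, n = 3), above all mitochondrial synthetase genes. FMT1, which formylates the mitochondrial initiator tRNA, had 188, 3 and 0 reads. CCA1 and THG1, which act on tRNA ends, averaged 18.4 ± 8.81 and 29.9 ± 4.60 CPM per kb. PTH1 and PTH2, which release tRNA from peptides, averaged 83.3 ± 43.6 and 151 ± 22.2, and DTD1, which removes D-amino acids, 9.50 ± 9.48 CPM per kb (SD, n = 3 each).

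Cytosolic genes were steadier between libraries than mitochondrial ones. The highest library exceeded the lowest by over 2-fold for 1 of 21 cytosolic genes, MES1, and for 5 of 14 mitochondrial genes, MSE1, MST1, MSW1, NAM2 and SLM5, against 25.5% of 5108 genes with a mean of at least 10 CPM. The median coefficient of variation was 16.4% in the cytosolic set and 26.4% in the mitochondrial set, against 24.4% over all genes. Counting error alone had a median of 2.93% for cytosolic and 7.68% for mitochondrial genes, which have fewer reads. DPS1 was the steadiest member, at 2.91%, while MST1 reached 85.3% against a counting error of 11.6%. NAM2 passed the limit narrowly, at 2.06-fold. Without replicate 3 the count of members over 2-fold was 2 and without replicate 2 it was 3, in place of 6. Leaving out a library cannot widen the range of a gene, so this count could not rise.

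The median deviations of both sets had opposite signs in each library, but the mitochondrial median in replicate 1 was only 0.04. The mitochondrial counts above 0 lay within a few genes of the share over all genes in each library. Each gene's log2 level in a library was set against its average in the remaining pair. In replicate 1 the median of these deviations was -0.13 for the cytosolic genes, with 7 of 21 above 0, and 0.04 for the mitochondrial genes, with 7 of 14 above 0, against -0.01 over all genes, of which 49.6% were above 0. In replicate 2 it was -0.16 for the cytosolic genes, with 8 of 21 above 0, and 0.34 for the mitochondrial genes, with 9 of 14 above 0, against -0.01 and 49.0% over all genes. In replicate 3 it was 0.20 for the cytosolic genes, with 17 of 21 above 0, and -0.21 for the mitochondrial genes, with 6 of 14 above 0, against 0.07 and 55.1% over all genes. VAS1 and HTS1 deviated most among cytosolic genes in replicate 3 on the high side, by 0.78 and 0.76, and MES1 on the low side, by -1.48. A gene's deviations balance over the 3 libraries, so they are not independent, and what the libraries differed in was not tested.

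**Figure D5:**
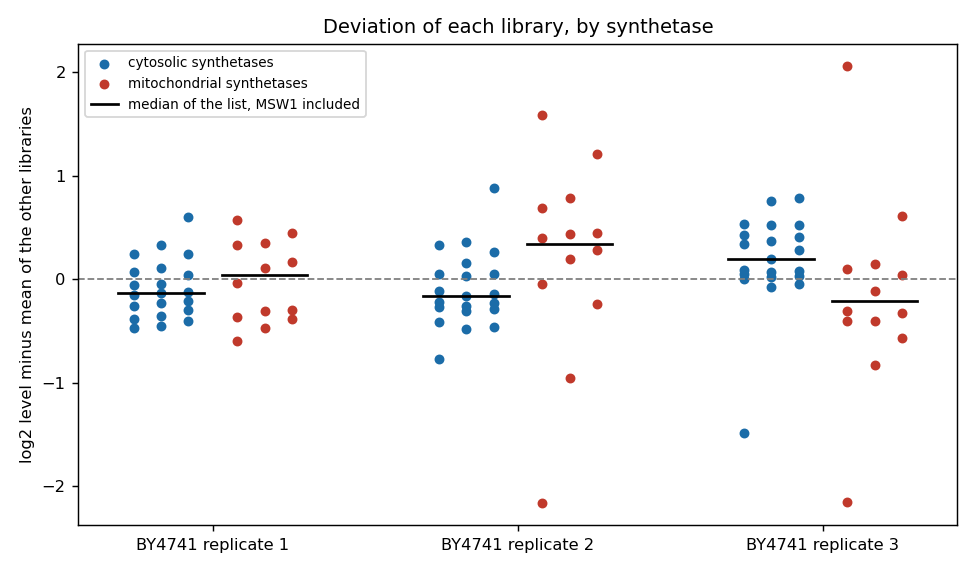
Log2 level of each synthetase gene in a BY4741 library minus its mean in the other libraries; points are genes, with cytosolic ones left of mitochondrial ones, and bars are list medians. MSW1 is not drawn, and the medians of the cytosolic and mitochondrial genes are -0.13 and 0.04 in replicate 1, -0.16 and 0.34 in replicate 2, and 0.20 and -0.21 in replicate 3.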

How the data were processed

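Only BY4741 libraries were used for gene levels. The authors deposited unnormalized read counts, 1 table a library, and FastQC, TopHat, HTSeq and DESeq2 are named per the submitters' processing notes. Their versions, the genome build, the gene models and whether strand was used are not stated in those notes, so reads of antisense neighbours may be included. Groups came from the strain labels. Counts were divided by library totals (CPM) and by coding length from R64, whose gene table held 5898 of 6572 identifiers. Log2 levels used an offset of 0.5 reads. Differences and ratios were taken within each library, with exact sign-flip permutation tests over 3 libraries. Counts of 0 were bounded at 3 reads, for counting error only. Proteins were translated from R64 and aligned globally with BLOSUM62, and promoter windows and codon use were read from R64. Alternatives covered TMM (edgeR 4.0.16) and DESeq2 1.42.0 size factors, offsets, thinning, length and omitted libraries. The pair ratios and the 2-fold rule were checked on simulated counts. These varied by counting error only, so the check does not cover the larger spread between the real libraries. Members and lists were chosen with earlier results of these data known. All members were named; other genes came from a list of 16 partners of tRNA charging, and genotype markers. Versions were R 4.3.3, Python 3.11.15, pandas 2.3.3, SciPy 1.17.1 and Biopython 1.88.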

Additional observations from a re-analysis of the deposited data

How the results depend on the processing

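The difference between the cytosolic and mitochondrial medians was 2.49 on the log2 scale and ranged from 2.45 to 2.72 over the alternatives run, which covered length, offset, thinning, filters, the mean in place of the median, the omission of the 5 dual-located genes and of each library, and, chosen after seeing the data, the omission of members beside a feature outside the gene table (2.55). The cytosolic gene was higher in each library for 13 of 14 pairs in every alternative but the omission of replicate 3, which gave 14. Leaving out a library can only raise this count of pairs or leave it unchanged. Replicate 3 is the one library in which MES1 lay below MSM1. All 111 recomputed mean pair ratios kept their sign, though MES1/MSM1 only barely, at a log2 ratio of 0.02 without replicate 2. The median of the cytosolic genes ranged from 79.4 to 103 CPM per kb when a library was left out, with the lowest value without replicate 3. Members over 2-fold between libraries numbered 6 with all libraries, and 5 with TMM, with DESeq2 size factors or after thinning. When a library was left out they numbered from 2 to 6, and an omission can only lower this count or leave it unchanged. The correlation with amino acid use was 0.59 without length scaling, against 0.44. Without an offset the WRS1/MSW1 ratio has no value. No paired analysis was possible because the tables of both strains share 0 identifiers, so BY4741 libraries could not be set against the Biocodex libraries of the same number; the ratios between genes were each taken within a library. Replicates 2 and 3 had the lower depth, and counting error had a median of 7.68% for mitochondrial and 2.93% for cytosolic genes. The median coefficient of variation was larger, at 26.4% and 16.4%, and what part depth had in it was not tested.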

Other observations

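Genes that dropped out of a single library were not spread evenly. Among the 40 genes with no reads in 1 library and at least 10 CPM in the other 2, the empty library was replicate 2 for 24 genes and replicate 3 for 16, and for 0 genes the deepest one, replicate 1. MSW1 was the one synthetase gene among them, with 189 and 130 reads in replicates 1 and 3.

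Features next to a synthetase gene in the systematic numbering but outside the R64 gene table were mostly unread. Over all 3 libraries YER088C-A beside AIM10 had 498 reads, YFL021C-A beside FRS2 had 103, YDR340W beside YDR341C had 40, YOR169C beside GLN4 had 31 and YLL019W-A beside DPS1 had 20. The remaining ones had 0 reads. Cytosolic genes with such a neighbour had a median of 86.6 CPM per kb, and those without had one of 97.2. Mitochondrial genes had medians of 18.8 with such a neighbour, for 2 genes, and 15.9 without.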
